A study of Mus musculus with 3 samples.

Results

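The potassium channel genes of the heart described here are 10 of the 32285 genes counted in single cells of mouse hearts. They were chosen as a named list, with earlier results of these data known, and the rule itself names genes and uses no threshold on their values. Kcnd2 and Kcnip2 encode the pore and a calcium-binding partner of the fast transient outward current. Kcnq1 and Kcnh2 encode the pores of the slow and the rapid delayed rectifier. Kcnj2 encodes an inward rectifier that holds the resting potential, and Kcnj3 a subunit of the channel opened by acetylcholine through G proteins. Kcnj8 and Abcc9 encode the pore and the sulfonylurea receptor of an ATP-sensitive channel. Kcnk2 encodes a mechanosensitive channel of the K2P family, and Kcnn2 a small-conductance channel opened by calcium. All 10 had UMIs (unique molecular identifiers, 1 for each captured transcript) in every library.

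Cells came from hearts of male C57/B6J mice of 3 genotypes, with 1 library for each genotype: WT, Myh6-R404Q and Prkag2-p.R299Q, of which Myh6-R404Q and Prkag2-p.R299Q carry point mutations and are mouse models of hypertrophic cardiomyopathy. Myh6 encodes the alpha myosin heavy chain of adult mouse heart muscle, and Prkag2 a regulatory subunit of AMP-activated protein kinase. Cells were released with collagenase, strained and taken as total cells without selection for a cell type, and 3-prime ends of transcripts were counted in droplets. The age of the mice, the number of animals behind a library, the zygosity and the cells in which each allele acts are details that the sources used here do not give. Since each genotype had a single library, the genotypes could not be tested against each other, and every interval below is a 95% interval of counting error that holds no variation between animals.

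Potassium channels let potassium leave the cell and so end the action potential and set the resting potential. In mouse ventricle, with its short action potential, the transient outward current carries most of the early repolarization, while the delayed rectifiers that dominate in human ventricle contribute less. ATP-sensitive channels open when ATP falls, and the form built from Kcnj8 and Abcc9 is known from vascular mural cells, where its opening hyperpolarizes the cell and relaxes the vessel. Channels of cells that do not fire, such as fibroblasts and mesothelium, set the resting potential of those cells.

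The WT library held 18033 barcodes with a median of 1559 UMIs, the Myh6-R404Q library 12662 with 2043, and the Prkag2-p.R299Q library 7951 with 2537. The matrix deposited for Myh6-R404Q also holds the other libraries, and its barcodes ending in 3 were taken as that genotype because those ending in 1 and 2 repeat the other matrices with 0 differing entries. After filters and doublet removal 14831, 10555 and 6840 cells were kept, which gave 20 clusters and 16 classes of cells, of which 10 had at least 200 cells in each library and were compared. Libraries shared 28 to 51 barcodes. Class names ending in "-like" come from marker genes. A class ending in "-marked" scored highest for that cell type and showed its markers, but a gene of another list was among its leading genes, so it was not given the name. The pericyte-marked class showed all 10 pericyte markers. The cardiomyocyte-marked class showed all 10 cardiomyocyte markers, and Nppa, a gene of the atrial marker list, was among its leading genes. Its other leading genes were Acta1, Nppb, Ankrd23, Pgam2, Dynll2, Des, Xirp2, Ankrd1 and Xirp1, none of them in the atrial list. The class held cells of low depth, with medians of 947 to 1008 UMIs against 4563 to 8100 in cardiomyocyte-like cells. Levels are given as CPM, the UMIs of a gene per 1000000 UMIs of its class in that library. A ratio was called when it reached 1.5-fold, its interval lay beyond 1 and the gene had at least 10 CPM in either library. To be called, the gene also had to reach 1/5 of its level in its highest class of the same library. This was a guard against RNA floating free in the droplets. A class with fewer than 50 cells in a library set no limit in that library. Both limits could be met in either of the libraries compared, so a gene can enter through the library where it is high. The shares of all genes called, given beside the members, were counted without this guard. Myh6 was at 12630 CPM in WT cardiomyocyte-like cells, 11260 for Myh6-R404Q and 12900 for Prkag2-p.R299Q, and Prkag2 at 65.8, 70.7 and 71.5. A point mutation need not alter such a count, so these values do not check the labels.

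**Figure D1:**
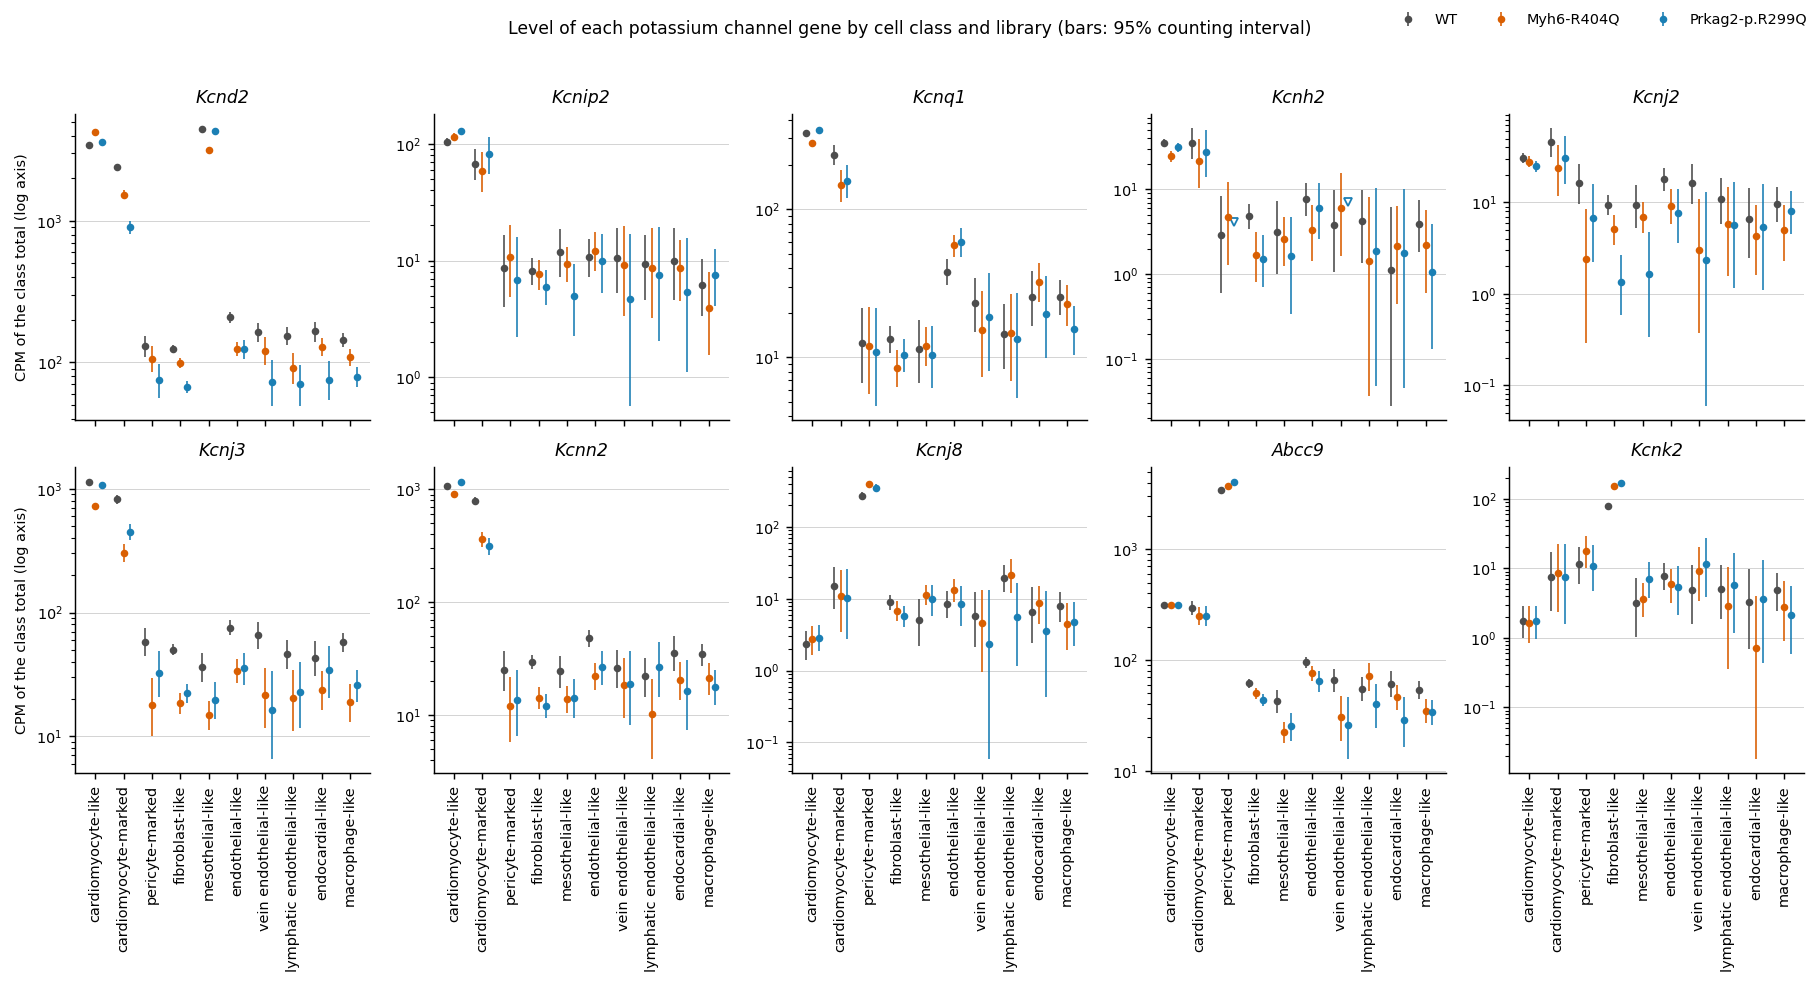
Each panel shows 1 gene. The x axis gives the 10 compared cell classes, the y axis the CPM of the class total on a log axis, points the 3 libraries and bars the 95% counting interval. Open triangles stand at the level of 3 counts where a library had 0 UMIs. Kcnq1, Kcnj3, Kcnip2 and Kcnn2 were highest in cardiomyocyte-like cells, Kcnj8 and Abcc9 in pericyte-marked cells, Kcnk2 in fibroblast-like cells, and Kcnd2 in both cardiomyocyte-like and mesothelial-like cells.

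The transient outward pore gene Kcnd2 (chromosome 6, 21215503 to 21729805, plus strand, mm10) was high in both heart muscle and the lining of the heart's surface. In mesothelial-like cells it was at 4429 CPM (interval 4326 to 4533) for WT, 3185 (3129 to 3242) for Myh6-R404Q and 4338 (4243 to 4435) for Prkag2-p.R299Q. In cardiomyocyte-like cells it was at 3462 CPM (3423 to 3502) for WT, 4239 (4192 to 4286) for Myh6-R404Q and 3629 (3589 to 3669) for Prkag2-p.R299Q. The mesothelial-like level was thus the higher in WT and Prkag2-p.R299Q and the lower in Myh6-R404Q, with intervals that did not overlap in any library. The median over the other 8 classes, cardiomyocyte-marked cells included, was 159, 114 and 75.1 CPM.

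The mesothelial-like Kcnd2 level was above its muscle-scaled level. That scale takes stray muscle RNA to hold Kcnd2 and Myh6 in the proportion found in cardiomyocyte-like cells. Scaling the cardiomyocyte-like level by the Myh6 found in mesothelial-like cells gives 513 CPM for WT, 577 for Myh6-R404Q and 398 for Prkag2-p.R299Q. In the other classes outside muscle the measured Kcnd2 level was below that scaled level, as in macrophage-like cells with 144 CPM measured and 819 scaled in WT. In those classes the scaled level thus exceeded what stray muscle RNA carried. The part of stray RNA in the mesothelial-like level was not tested. With every cell thinned to 1000 UMIs, 89.6% of WT mesothelial-like cells held a Kcnd2 UMI (87.1 to 91.8), 81.9% for Myh6-R404Q and 90.1% for Prkag2-p.R299Q. Macrophage-like cells, which are not known for this current, held one in 12.4%, 10.1% and 7.56%. The median depths before thinning were 1782, 2607 and 2978 UMIs in mesothelial-like and 1299, 1608 and 2104 in macrophage-like cells. All 8 mesothelial markers were detected in the class in every library, with sums of 2330, 2794 and 3259 CPM.

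**Figure D2:**
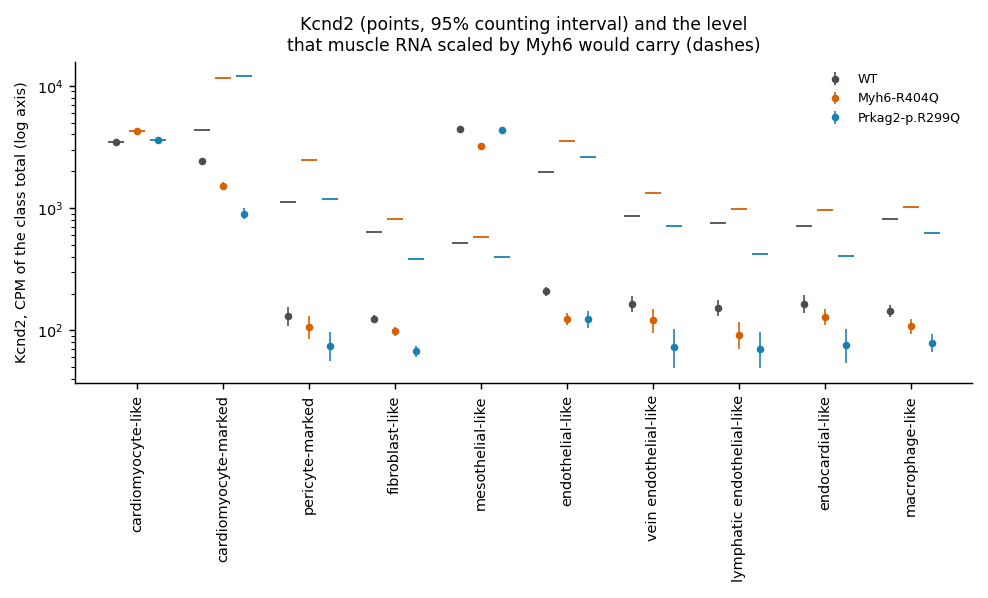
The x axis gives the 10 compared classes and the y axis Kcnd2 in CPM on a log axis. Points are measured levels with 95% counting intervals, and dashes are the cardiomyocyte-like level scaled by the Myh6 of the class. The mesothelial-like points, at 3185 to 4429 CPM, lie above their dashes at 398 to 577.

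Against WT the mesothelial-like level in Myh6-R404Q was 0.719 times as high (0.698 to 0.741), short of the 1.5-fold call, and in Prkag2-p.R299Q 0.980 (0.949 to 1.01). In cardiomyocyte-like cells the ratios were 1.22 (1.21 to 1.24) and 1.05 (1.03 to 1.07). Myh6-R404Q was therefore the lowest library in mesothelial-like and the highest in cardiomyocyte-like cells. At a finer clustering, with 1.2 in place of 0.8 as resolution, a further small cluster rich in the mesothelial gene Msln stood apart, with 13, 57 and 37 cells, and its Kcnd2 was at 700, 357 and 362 CPM. The main mesothelial cluster at that setting was at 4429, 3183 and 4323 CPM. Of all Kcnd2 UMIs in kept cells, 72.5% for WT, 68.2% for Myh6-R404Q and 77.3% for Prkag2-p.R299Q lay in cardiomyocyte-like cells. Mesothelial-like cells held 17.2%, 26.8% and 19.5%, while they were 5.28%, 12.4% and 7.82% of the kept cells.

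Kcnip2 (chromosome 19, 45791839 to 45816061, minus strand), whose product raises the surface density of the Kcnd2 channel, was not high in mesothelium. In cardiomyocyte-like cells it was at 104 CPM (97.4 to 111) for WT, 115 (107 to 123) for Myh6-R404Q and 129 (122 to 137) for Prkag2-p.R299Q. The WT and Prkag2-p.R299Q intervals did not overlap, and the ratio was 1.24 (1.14 to 1.36), short of a call. In mesothelial-like cells Kcnip2 was at 11.9 CPM in WT, close to the 9.63 CPM median of the 8 classes outside muscle. The 2 genes of this current therefore shared the muscle classes and differed in mesothelial-like cells, where Kcnd2 alone was above its muscle-scaled level.

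Kcnq1 (chromosome 7, 143106362 to 143427042, plus strand), the slow delayed rectifier pore, was highest in cardiomyocyte-like cells, with 327 CPM (315 to 339) for WT, 281 (269 to 294) for Myh6-R404Q and 341 (329 to 353) for Prkag2-p.R299Q. Myh6-R404Q was the low library, at 0.861 times WT (0.813 to 0.911), and WT and Prkag2-p.R299Q overlapped. Neither ratio was called. In endothelial-like cells, which line the capillaries, the order differed: 37.8 CPM (30.8 to 45.9) for WT, 56.9 (47.7 to 67.3) for Myh6-R404Q and 59.9 (47.4 to 74.6) for Prkag2-p.R299Q. The mutant levels there were 1.51 (1.16 to 1.97) and 1.58 times WT, and only the Myh6-R404Q ratio met the guard, beside 4.32% of 10290 genes called higher in that class. It met it narrowly and only through the Myh6-R404Q library, where the cardiomyocyte-like level was lowest, so the call reflects the filter and does not set this ratio apart from the larger one of Prkag2-p.R299Q. The muscle-scaled Kcnq1 level in endothelial-like cells was 235 CPM in Myh6-R404Q, above the measured 56.9, so this scale exceeds what stray muscle RNA carried there. The part of stray RNA in the endothelial ratio was not tested. Arterial endothelial-like cells, a small class of 202, 68 and 35 cells, had 103, 154 and 112 CPM, with overlapping intervals. The long antisense RNA Kcnq1ot1 lies within Kcnq1, and it was at 958, 947 and 1340 CPM in cardiomyocyte-like cells. Whether the counting used strand is not given in the sources used here, so the share of Kcnq1 counts that could come from it is not known.

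Kcnh2 (chromosome 5, 24319589 to 24351604, minus strand), the rapid delayed rectifier pore, was found mainly in the muscle classes. Cardiomyocyte-like cells had 35.2 CPM (31.4 to 39.4) for WT, 24.7 (21.2 to 28.5) for Myh6-R404Q and 31.4 (27.8 to 35.3) for Prkag2-p.R299Q. The Myh6-R404Q interval lay below that of WT, at a ratio of 0.700 (0.579 to 0.845), which is short of a call. Cardiomyocyte-marked cells had 35.7, 21.6 and 27.9 CPM from 24, 10 and 11 UMIs, and their intervals overlapped each other and those of cardiomyocyte-like cells. In the other 8 classes the medians were 1.59 to 3.91 CPM.

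Kcnj2 (chromosome 11, 111066164 to 111076821, plus strand), the inward rectifier of the resting potential, was spread over several classes. Its cardiomyocyte-like level was 30.8 CPM (27.2 to 34.7) for WT, 28.1 (24.4 to 32.2) for Myh6-R404Q and 24.9 (21.7 to 28.5) for Prkag2-p.R299Q, and these intervals overlapped pairwise. Cardiomyocyte-marked cells had 46.1, 23.7 and 30.5 CPM from 31, 11 and 12 UMIs, with overlapping intervals. Cardiomyocyte-like cells held 50.5% of the Kcnj2 UMIs in WT, where endothelial-like cells held 9.37%.

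Kcnj2 in endothelial-like cells was lower in both mutant libraries. Endothelial-like cells had 18.2 CPM (13.4 to 24.0) for WT, 9.20 (5.77 to 13.9) for Myh6-R404Q and 7.58 (3.64 to 13.9) for Prkag2-p.R299Q, ratios of 0.507 (0.292 to 0.854) and 0.418 (0.189 to 0.835). Both were called lower, where 5.35% and 4.53% of genes were. Vein endothelial-like cells held 17 UMIs in WT and 2 and 1 in the mutants, at ratios of 0.186 (0.0209 to 0.784) and 0.143 (0.00342 to 0.912), where 3.48% and 4.04% of genes were called lower. Pericyte-marked cells held 17, 2 and 5 UMIs, at ratios of 0.145 (0.0162 to 0.609) and 0.414 (0.120 to 1.17), where 3.72% and 4.44% of genes were called lower. In endothelial-like, vein endothelial-like and pericyte-marked cells Kcnj2 reached 10 CPM in the WT library alone, so it entered through the library where it was high, and these ratios are a description. In the small arterial endothelial-like class Kcnj2 was at 17.7 CPM for WT and 27.1 for Myh6-R404Q, from 5 and 3 UMIs, with 0 UMIs in Prkag2-p.R299Q. These counts are small. The muscle-scaled Kcnj2 level in endothelial-like cells was 17.7, 23.4 and 18.1 CPM, close to the WT value of 18.2. Kcnd2, Kcnj3 and Kcnn2 lay below their own muscle-scaled levels in this class, so the scale can exceed what stray muscle RNA carries. The part of stray RNA in these Kcnj2 ratios was not tested.

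Kcnj3 (chromosome 2, 55435970 to 55598145, plus strand), the subunit of the acetylcholine-gated channel that slows the atria and the nodes, had the lowest ratio to WT of the measured members in cardiomyocyte-like cells of Myh6-R404Q. Cardiomyocyte-like cells had 1137 CPM (1115 to 1160) for WT, 727 (708 to 747) for Myh6-R404Q and 1063 (1041 to 1085) for Prkag2-p.R299Q. No interval overlapped another, and Myh6-R404Q stood far below the other libraries. Its ratio to WT was 0.639 (0.618 to 0.661) and was called lower, whereas that of Prkag2-p.R299Q was 0.935 (0.908 to 0.962). Of 9102 genes measured in this class, 2.89% were called lower in Myh6-R404Q and 10.1% higher.

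After thinning to 1000 UMIs, 58.6% of WT cardiomyocyte-like cells held a Kcnj3 UMI (56.1 to 61.0), 46.6% for Myh6-R404Q (43.5 to 49.6) and 58.6% for Prkag2-p.R299Q (55.3 to 61.9). Macrophage-like cells held one in 4.68%, 2.01% and 3.13%. Before thinning the shares in cardiomyocyte-like cells were 89.3%, 86.6% and 94.8%, at median depths of 4563, 6146 and 8100 UMIs. Cells with an atrial UMI before thinning were 7.01% of the class for WT, 10.6% for Myh6-R404Q and 18.3% for Prkag2-p.R299Q. These shares rise with depth. The summed atrial list was at 26.6, 19.6 and 71.3 CPM, so it was lower in Myh6-R404Q than in WT. Its genes Sln and Bmp10 had no UMI in any library, and an atrial UMI does not by itself mark an atrial cell. Among cells without an atrial UMI the log2 ratio of Myh6-R404Q to WT was -0.70, against -0.64 in the whole class. Summed muscle RNA was 44940, 39920 and 41260 CPM, and the heat shock list 353, 218 and 212 CPM in WT, Myh6-R404Q and Prkag2-p.R299Q. The part of these lists in the Kcnj3 ratio was not tested.

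Kcnj3 was also lower in both mutant libraries in classes outside muscle. Fibroblast-like cells had 49.99, 18.4 and 22.2 CPM, and endothelial-like cells 75.2, 33.9 and 35.6. Every one of these values lay below the muscle-scaled level, which was 210, 139 and 111 CPM in fibroblast-like cells. None of them reached the guard.

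**Figure D3:**
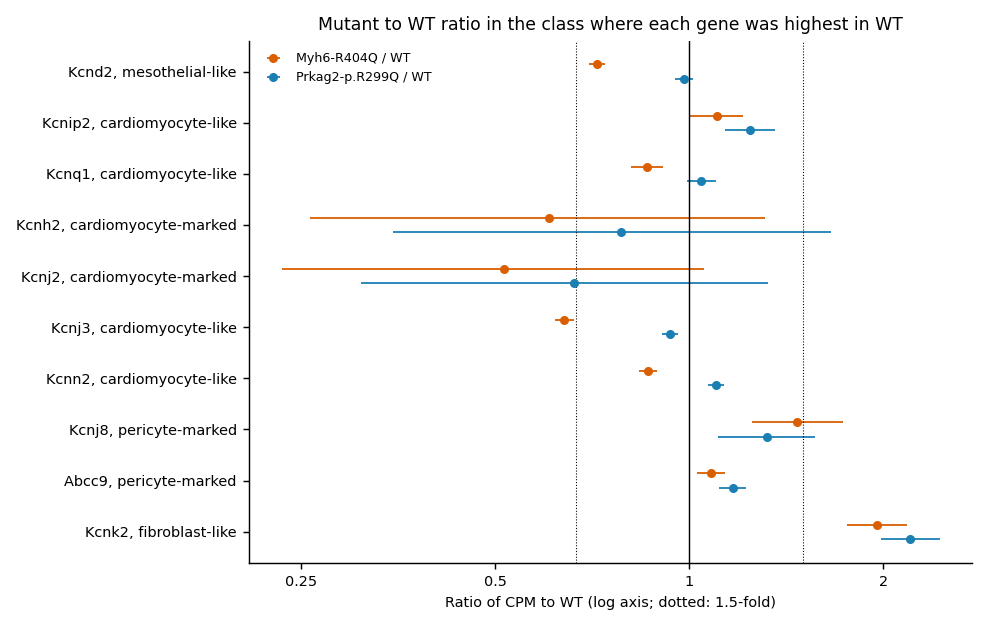
The x axis is the ratio of CPM to WT on a log axis, with dotted lines at 1.5-fold in either direction. Each row is a gene in the class where it was highest in WT, points are the 2 mutant libraries and bars 95% counting intervals. Kcnk2 lies beyond the dotted line in both mutants and Kcnj3 in Myh6-R404Q, and the points of Kcnh2 in Myh6-R404Q and of Kcnj2 in both mutants lie beyond it with intervals that include 1.

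Kcnj8 and Abcc9, the partners of the vascular ATP-sensitive channel, are neighbours on the minus strand of chromosome 6 (142564837 to 142571614 and 142587862 to 142702315), with 16247 bases and 0 protein-coding genes between them. The RefSeq table of promoters (GRCm38.p6) held 8 of the 10 members. The 250 bases before the RefSeq start site of each gene of this pair are shown because both genes led in the same cells, and those of Kcnd2 because it led in unlike cells. Capitals mark matches, on either strand, to the Sp1 motif GGGCGG, the TATA box TATAAA, the E-box CANNTG, the TEAD motif GGAATG, the GATA motif AGATAA and the RBPJ motif GTGGGAA. No match overlaps another. The RefSeq start sites of Abcc9 and Kcnd2 differ from the ends of the gene positions given here, which come from another annotation, so the Abcc9 window runs into that gene model and the Kcnd2 window ends before it. Positions are chr6:142571615-142571864 on the minus strand for Kcnj8, chr6:142702275-142702524 on the minus strand for Abcc9 and chr6:21215096-21215345 on the plus strand for Kcnd2.
Kcnj8: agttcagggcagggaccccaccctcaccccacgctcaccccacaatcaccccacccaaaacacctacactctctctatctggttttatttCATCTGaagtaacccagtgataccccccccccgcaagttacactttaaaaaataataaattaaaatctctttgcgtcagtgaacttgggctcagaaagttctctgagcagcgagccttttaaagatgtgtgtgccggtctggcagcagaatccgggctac
Abcc9: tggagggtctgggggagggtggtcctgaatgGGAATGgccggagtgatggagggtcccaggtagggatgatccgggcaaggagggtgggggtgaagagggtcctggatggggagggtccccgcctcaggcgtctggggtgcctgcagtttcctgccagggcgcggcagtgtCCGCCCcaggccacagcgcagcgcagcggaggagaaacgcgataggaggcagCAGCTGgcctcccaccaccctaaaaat
Kcnd2: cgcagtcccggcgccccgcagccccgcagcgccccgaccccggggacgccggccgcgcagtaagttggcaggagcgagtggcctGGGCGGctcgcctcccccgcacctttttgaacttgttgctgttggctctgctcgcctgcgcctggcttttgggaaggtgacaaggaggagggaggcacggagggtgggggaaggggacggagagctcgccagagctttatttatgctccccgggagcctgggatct
The Kcnj8 window held 1 E-box, which 66.2% of all 32851 promoter windows of this length hold. The Abcc9 window held 1 E-box, 1 Sp1 motif and 1 TEAD motif, which 32.7% and 12.6% of windows hold for the last pair. Kcnd2 had 1 Sp1 motif. The TATA box, the GATA motif and the RBPJ motif, held by 12.4%, 9.99% and 5.42% of windows, had 0 matches in these windows. GC content was 49.2% for Kcnj8, 66.8% for Abcc9 and 68.8% for Kcnd2, against a median of 52.4% over all windows. A match is only a string of letters, and nothing here measured binding.

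Both genes were concentrated in pericyte-marked cells. Kcnj8 was at 270 CPM there (239 to 303) for WT, 397 (355 to 442) for Myh6-R404Q and 355 (314 to 401) for Prkag2-p.R299Q. Both mutant intervals lay above that of WT. The ratios were 1.47 (1.25 to 1.73) and 1.32 (1.11 to 1.57), just inside the 1.5-fold rule in the first case, and neither was called. The next class, lymphatic endothelial-like in WT and Myh6-R404Q, had 19.4 and 21.8 CPM, and cardiomyocyte-like cells had 2.33, 2.73 and 2.88.

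Abcc9 stood at 3436 CPM in pericyte-marked cells of WT (3324 to 3550), 3711 for Myh6-R404Q (3582 to 3843) and 4012 for Prkag2-p.R299Q (3868 to 4159). No interval overlapped another, and the ratios of 1.08 (1.03 to 1.13) and 1.17 (1.11 to 1.23) were short of a call. Unlike Kcnj8, Abcc9 was also found in heart muscle, at 314 CPM for WT, 312 for Myh6-R404Q and 313 for Prkag2-p.R299Q in cardiomyocyte-like cells, where the intervals overlapped throughout. Cardiomyocyte-marked cells had 297, 250 and 252 CPM. Pericyte-marked cells held 46.2% of the Abcc9 UMIs in WT and cardiomyocyte-like cells 35.0%, while for Kcnj8 these shares were 59.7% and 4.28%.

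Within single pericyte-marked cells thinned to 1000 UMIs, 92.8% held Abcc9 for WT, 93.4% for Myh6-R404Q and 95.6% for Prkag2-p.R299Q. Kcnj8 was seen in 22.9%, 32.2% and 29.7%, and in 0.631%, 0.473% and 0.391% of macrophage-like cells. Both were seen in 22.1%, 29.7% and 29.4%, where independence within the class would give 21.2%, 30.1% and 28.4%. Cells with Kcnj8 but no Abcc9 numbered 4 of 511, 10 of 394 and 1 of 293. The 10 pericyte markers summed to 5381, 5990 and 5836 CPM, muscle RNA in the class was 14310, 19070 and 12910 CPM, and the heat shock list 669, 385 and 441. Their part in the Kcnj8 ratios was not tested.

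Kcnk2 (chromosome 1, 189207930 to 189402273, minus strand), the stretch-sensitive K2P channel also called TREK-1, belonged to fibroblast-like cells and was higher in both mutants. It was at 77.8 CPM (71.5 to 84.5) for WT, 152 (142 to 162) for Myh6-R404Q and 171 (161 to 182) for Prkag2-p.R299Q. Both mutant intervals lay above that of WT and overlapped each other at their ends. The ratios to WT were 1.96 (1.76 to 2.18) and 2.20 (1.98 to 2.44), both called higher, where 4.46% of 10500 and 3.25% of 10468 genes were. Between the mutants the ratio was 1.13 (1.03 to 1.23), with no call. Pericyte-marked cells came next in WT with 11.6 CPM, and cardiomyocyte-like cells had 1.75, 1.64 and 1.73. Fibroblast-like cells held 85.8%, 92.0% and 94.2% of the Kcnk2 UMIs.

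The higher Kcnk2 level was found in each of the 4 fibroblast-like clusters. In cluster 1, led by Trhde, Kcnip1 and Gfra1, it was at 84.6, 162 and 195 CPM in WT, Myh6-R404Q and Prkag2-p.R299Q. In cluster 5, led by Cilp, Ccl2 and Postn, it was at 82.9, 152 and 179. In cluster 6, led by Has2, Efhd1 and Pi16, it was at 65.6, 144 and 100. Cluster 11, led by Fbn2, had 64.6, 104 and 153 CPM. All ratios to WT lay between 1.53 and 2.37, each with an interval above 1. Cluster 6 was the exception to the order of the mutants, with Prkag2-p.R299Q at 0.699 times Myh6-R404Q (0.536 to 0.911).

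**Figure D4:**
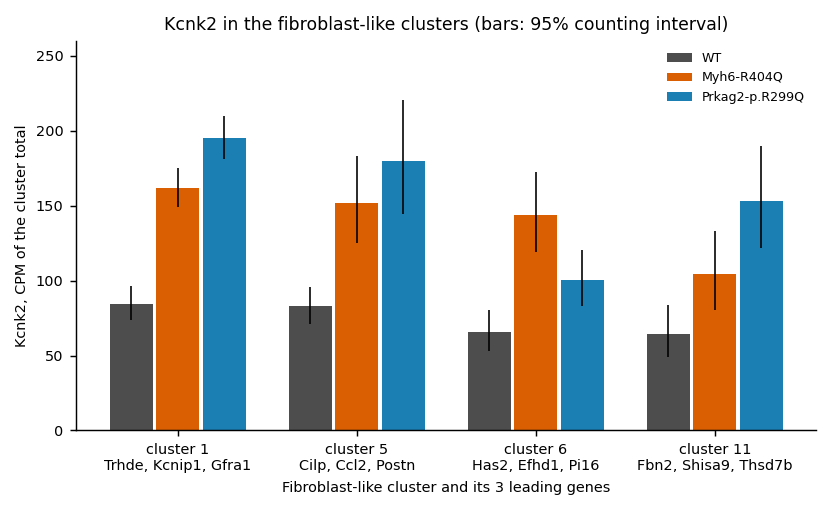
The x axis gives the 4 fibroblast-like clusters with 3 leading genes each, and the y axis Kcnk2 in CPM of the cluster total. Bars are the 3 libraries with 95% counting intervals. WT was the lowest library in each cluster, at 64.6 to 84.6 CPM, and the mutants stood at 100 to 195.

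In fibroblast-like cells thinned to 1000 UMIs, a Kcnk2 UMI was seen in 6.49% of WT cells (5.70 to 7.36), 13.1% for Myh6-R404Q (11.8 to 14.4) and 12.6% for Prkag2-p.R299Q (11.2 to 14.1). Unthinned shares were 9.66%, 21.5% and 25.9% at median depths of 1532, 1905 and 2523 UMIs. Macrophage-like cells held one in 0.180%, 0.473% and 0.261%. The makeup of the class moved with genotype: cluster 5 held 1679 of 4338 fibroblast-like cells in WT, 512 of 2892 in Myh6-R404Q and 281 of 2237 in Prkag2-p.R299Q. Immediate early genes summed to 362, 200 and 193 CPM, heat shock genes to 568, 296 and 393 and muscle RNA to 8934, 7513 and 4664 in the class. Within the clusters the ratios stood as given above, and the part of these lists in them was not tested. All 9 fibroblast markers were detected in every library, with sums of 3732, 5076 and 5149 CPM.

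Kcnn2 (chromosome 18, 45268860 to 45686024, plus strand), the calcium-activated channel, was a gene of heart muscle. Cardiomyocyte-like cells had 1063 CPM (1041 to 1085) for WT, 916 (894 to 938) for Myh6-R404Q and 1170 (1147 to 1193) for Prkag2-p.R299Q. No interval overlapped another, with ratios to WT of 0.862 (0.835 to 0.889) and 1.10 (1.07 to 1.13), neither called. After thinning, 59.7%, 53.7% and 63.6% of cardiomyocyte-like cells held a Kcnn2 UMI, against 3.06%, 2.37% and 1.56% of macrophage-like cells. Cardiomyocyte-like cells held 88.8%, 93.5% and 96.7% of its UMIs. Kcnn2 was also among the 10 leading genes of the cardiomyocyte-like cluster, although channel genes took no part in the clustering.

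Read together, 8 members were measured in cardiomyocyte-like cells at 10 CPM or more. Their median log2 ratio to WT was -0.17 in Myh6-R404Q, beside 0.10 over all genes, and 0.03 in Prkag2-p.R299Q, beside -0.04. In Myh6-R404Q 1 was called lower and 0 higher, and in Prkag2-p.R299Q 0 were called, where 3.11% of genes were called higher and 3.65% lower. In fibroblast-like cells 6 members were measured and Kcnk2 alone met the guard. Its calls stand beside 3 members lower without meeting the guard in each mutant, namely Kcnq1, Kcnj3 and Kcnn2 in Myh6-R404Q and Kcnd2, Kcnj3 and Kcnn2 in Prkag2-p.R299Q, where 4.91% and 6.14% of genes were lower. In pericyte-marked and mesothelial-like cells 0 of the members leading there were called. In pericyte-marked cells 0 of 9 measured members were higher in Myh6-R404Q and 2 lower, 1 of them, Kcnj2, meeting the guard through WT alone, beside 4.16% and 3.72% of genes. In Prkag2-p.R299Q 2 of 8 were lower without meeting it, beside 3.78% higher and 4.44% lower. In mesothelial-like cells of Myh6-R404Q 1 of 7 was higher and 3 lower, and of Prkag2-p.R299Q 4 of 6 were lower, and none of these met the guard, beside 6.45% and 4.84% and then 5.68% and 4.03% of genes.

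The classes where no member leads showed lower members that mostly failed the guard. In endothelial-like cells 4 of 8 were lower in Myh6-R404Q and 4 of 7 in Prkag2-p.R299Q, and in each case 1, Kcnj2, met the guard, beside 5.35% and 4.53% of genes lower and 4.03% higher in the latter. In vein endothelial-like cells 3 of 7 and 4 of 8 were lower, where Kcnj2 again met it through WT alone, beside 3.48% and 4.04% lower and 4.36% and 4.0% higher. In macrophage-like cells 3 of 5 and then 5 of 5 were lower and 0 met the guard, beside 6.98% and 9.03% lower and 7.26% and 4.01% higher. Kcnd2, Kcnj3 and Kcnn2 lay below their muscle-scaled levels in each of these classes and libraries. In lymphatic endothelial-like cells 2 of 7 and 3 of 7 were lower and 0 met the guard, beside 4.2% and 5.01% lower and 4.84% and 3.45% higher. In endocardial-like cells 2 of 5 and 3 of 5 were lower and 0 met it, beside 5.03% and 5.23% lower and 5.07% and 3.78% higher.

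Between the mutants few members reached 1.5-fold. In cardiomyocyte-like cells 0 of 8 were called, although the intervals of Kcnj3 at 1.46, Kcnn2 at 1.28, Kcnh2 at 1.27, Kcnq1 at 1.21, Kcnip2 at 1.13 and Kcnd2 at 0.856 lay beyond 1, beside 1.57% of genes higher and 8.55% lower in Prkag2-p.R299Q than in Myh6-R404Q. In fibroblast-like, pericyte-marked, mesothelial-like, macrophage-like and endothelial-like cells 0 passed in either direction. The shares higher there were 2.41%, 2.47%, 3.33%, 3.23% and 3.01%, and the shares lower 4.0%, 4.07%, 4.1%, 7.06% and 2.7%. In lymphatic endothelial-like cells 2 of 6, in endocardial-like cells 1 of 5 and in vein endothelial-like cells 1 of 6 were lower without meeting the guard. Beside them 2.39%, 2.98% and 2.55% of genes were higher and 4.09%, 4.28% and 2.97% lower. For all 10 genes in their own leading class, 1 was called higher and 1 lower in Myh6-R404Q, 1 higher and 0 lower in Prkag2-p.R299Q, and 0 between the mutants.

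The cardiomyocyte-marked cells gave a different picture from the cardiomyocyte-like cells. Kcnd2 was at 2401 CPM (2285 to 2521) for WT, 1525 (1415 to 1642) for Myh6-R404Q and 902 (811 to 1001) for Prkag2-p.R299Q, with ratios to WT of 0.635 (0.581 to 0.695) and 0.376 (0.334 to 0.422). Kcnn2 was at 794 CPM (728 to 864) for WT, 360 (308 to 419) for Myh6-R404Q and 312 (260 to 373) for Prkag2-p.R299Q. Kcnj3 was at 825 CPM (758 to 897), 304 (256 to 359) and 450 (386 to 521). For these 3 genes WT stood above both mutants with no overlap. Kcnq1 was at 233 CPM (198 to 273) for WT, 145 (112 to 184) for Myh6-R404Q and 155 (119 to 199) for Prkag2-p.R299Q, and its WT and Prkag2-p.R299Q intervals touched at their ends.

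These 4 were called lower in each mutant, of 9 members measured, where 9.79% of 10628 genes were called lower in Myh6-R404Q and 13.2% of 10887 in Prkag2-p.R299Q, and 12.0% and 13.3% higher. Between the mutants Kcnd2 was called lower in Prkag2-p.R299Q at 0.591 (0.519 to 0.673), where 5.58% of genes were and 3.94% were higher. Kcnip2 was not lower, at 66.9, 58.2 and 81.3 CPM with overlapping intervals. Sarcomere RNA ran the other way: the muscle list summed to 54950 CPM for WT, 91840 for Myh6-R404Q and 119500 for Prkag2-p.R299Q, and Myh6 alone to 15760, 30900 and 42390. The atrial list was at 108, 304 and 1476 CPM, with 5 of its 7 genes at 0 in Prkag2-p.R299Q and 2 of 7 in the other libraries. Mitochondrial RNA was 40340, 49190 and 48820 CPM, against 9839, 9822 and 7326 in cardiomyocyte-like cells. The part of these quantities in the lower channel levels was not tested, and a change in which cells fall into this class cannot be told apart from a change within them.

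**Figure D5:**
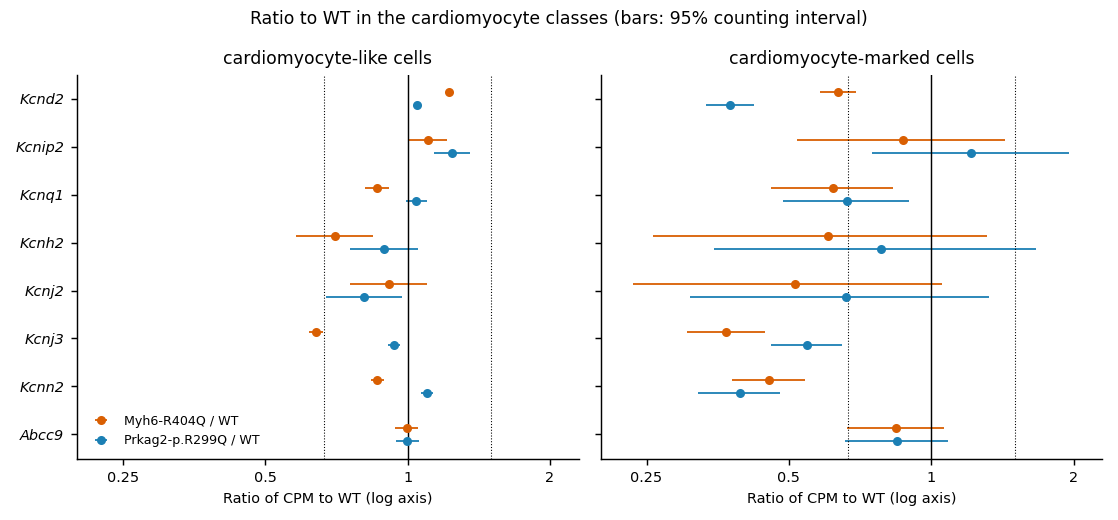
Panels show cardiomyocyte-like and cardiomyocyte-marked cells. The x axis is the ratio of CPM to WT on a log axis with dotted lines at 1.5-fold, points are the mutant libraries and bars 95% counting intervals. Kcnd2, Kcnj3 and Kcnn2 lie between 0.369 and 0.635 in cardiomyocyte-marked cells, while in cardiomyocyte-like cells only Kcnj3 in Myh6-R404Q lies beyond the line.

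A wider list of 85 other potassium channel genes, of which 84 were in the files, shows which other channels the classes carried. A mean of 10 CPM in at least 1 compared class was reached by 36 of them. In cardiomyocyte-like cells they included Kcnd3, another transient outward pore, at 394, 468 and 418 CPM, Kcng2, a silent modifying subunit, at 407, 392 and 471, and Kcnk3, an acid-sensitive K2P channel, at 117, 89.0 and 103. Kcnt2, a sodium-activated channel, was highest in endocardial-like cells at 2481, 2670 and 2783 CPM, followed by fibroblast-like cells at 2021, 1860 and 1991. Kcnk13 was highest in macrophage-like cells at 508, 262 and 423 CPM and Kcnn3 in lymphatic endothelial-like cells at 197, 290 and 212. Mesothelial-like cells carried Kcnt2 at 636, 724 and 661 CPM and Kcnq5 at 331, 179 and 214.

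In cardiomyocyte-like cells 18 of the listed genes were measured in Myh6-R404Q against WT, and 3 were called. Kcnip4, an accessory subunit of Kcnd channels, was higher at 1.63 (1.41 to 1.88), as was the accessory gene Dpp6 at 1.56 (1.10 to 2.23). Kcnj12, a close relative of Kcnj2, was lower at 0.611 (0.497 to 0.749). In Prkag2-p.R299Q 17 were measured, and Kcnh7 at 2.14 (1.66 to 2.79) and Kcnj13 at 1.70 (1.38 to 2.10) were called higher. These counts stand beside the 10.1% and 2.89% of genes called in Myh6-R404Q and the 3.11% and 3.65% in Prkag2-p.R299Q.

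Of 12 listed genes measured in fibroblast-like cells, 1 was called in each mutant, beside the member Kcnk2. Lower levels that failed the guard were seen for 4 listed genes with Myh6-R404Q and 5 with Prkag2-p.R299Q. Among all genes, 4.46% were called higher and 4.91% lower for the first mutant, against 3.25% and 6.14% for the second. Kcnip1, a Kcnd partner, was at 65.1 CPM in WT and 113 in Myh6-R404Q, a ratio of 1.73 (1.54 to 1.95). It is a leading gene of fibroblast-like cluster 1, which held 1294 of 4338 fibroblast-like cells in WT and 1693 of 2892 in Myh6-R404Q, and the part of this makeup in the ratio was not tested. Kcnip3 was at 54.5 CPM in WT and 90.2 in Prkag2-p.R299Q, a ratio of 1.66 (1.45 to 1.89). In macrophage-like cells of Myh6-R404Q the K2P gene Kcnk13 was lower at 0.516 (0.463 to 0.575) and Kcnip4 higher at 1.61 (1.37 to 1.89). Kcnk3 was called lower in both mutants in endocardial-like, lymphatic endothelial-like, vein endothelial-like and pericyte-marked cells, with ratios from 0.123 to 0.455. Each ratio rested on 3 to 21 UMIs in the mutant. Between 3.48% and 5.23% of all genes were called lower in these comparisons. Among the compared classes Kcnk3 had its highest mean level in cardiomyocyte-marked cells, at 119 CPM. A gene called lower can meet the guard through WT, where it is high, so these ratios are a description. The part of stray muscle RNA in them was not tested. In endothelial-like cells Kcnk3 was called lower in Myh6-R404Q, at 0.553 (0.413 to 0.736), where 5.35% of genes were.

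Other calls of the wider list were spread over the classes. Kcnc2, a fast delayed rectifier pore, was at 136 CPM in WT endocardial-like cells, 177 for Myh6-R404Q and 19.7 for Prkag2-p.R299Q, the last at 0.145 times WT (0.0704 to 0.268). Kcnh1 was higher in the same class of Prkag2-p.R299Q, at 2.27 (1.41 to 3.70). There 3.78% of genes were called higher and 5.23% lower. Mesothelial-like cells of Prkag2-p.R299Q had lower Kcnq5, at 0.646 (0.565 to 0.738), and Kcnmb2, at 0.211 (0.0842 to 0.466), and higher Kcnip4, at 2.02 (1.28 to 3.27), where 4.03% of genes were called lower and 5.68% higher. In WT the mesothelial-like Kcnq5 level was 0.181 of that in its highest class, below 1/5. It therefore met the guard through Prkag2-p.R299Q alone, where classes of fewer than 50 cells set no limit. In endothelial-like cells Kcna5 was lower in Myh6-R404Q, at 0.602 (0.427 to 0.841), and in Prkag2-p.R299Q Kcnab1 was lower, at 0.664 (0.446 to 0.970), and Kcnk6 higher, at 1.88 (1.02 to 3.46). Fibroblast-like cells, with the highest mean Kcnab1 of the compared classes, stood at only 0.0281 of its highest class in WT. Endothelial-like Kcnab1 thus met the guard through Prkag2-p.R299Q alone. Calls were also summed over all compared classes, with the guard taken over those classes alone, unlike for the calls named above. By that rule the wider list had 10 calls higher and 16 lower in Myh6-R404Q. It had 15 higher and 11 lower in Prkag2-p.R299Q, and both comparisons share the WT library.

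In cardiomyocyte-marked cells Kcng2 was called lower in both mutants, at 0.631 (0.498 to 0.795) and 0.521 (0.397 to 0.677), and Kcnd3 in Prkag2-p.R299Q, at 0.264 (0.178 to 0.380). Some genes called higher there in Prkag2-p.R299Q came from single cells. Kcnj6 had 53 UMIs, all in 1 of 290 cells, and Kcnip3 had 26 UMIs, 25 of them in 1 cell. Kcnj11, the muscle ATP-sensitive pore, was spread over 32 cells with 38 UMIs and was at 34.2, 51.8 and 96.5 CPM in WT, Myh6-R404Q and Prkag2-p.R299Q.

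The genes whose levels ran closest to each member were taken by Pearson's r of log2(CPM + 1) over 30 sums, 3 libraries of 10 classes, among 12187 genes. These sums share their libraries and depths, so r is a description only. Kcnj3 ran closest to Fhl2 (r = 0.991) and Kcnn2 also to Fhl2 (0.985), while Kcnip2 ran closest to the splicing factor gene Rbm20 (0.972). Kcnd2 ran closest to Sox6 (0.981) and Macrod1 (0.980). Kcnq1 ran closest to Ppp1r14c (0.957), Kcnh2 to the adrenoceptor gene Adra1b (0.948) and Kcnj2 to Ldb3 (0.893). Kcnj8 ran closest to Vtn (0.924), a pericyte marker, Abcc9 to the endothelin receptor gene Ednra (0.922), and Kcnk2 to Scn7a and Rgs17 (both 0.912).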

How the data were processed

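Raw UMI counts per gene and cell were deposited by the authors for 3 libraries of mouse heart, made with a 3-prime droplet kit per the labels' protocols and with Cell Ranger 7.0.1 on mm10 per the submitters' processing notes. Whether introns and strand were used in counting is not given in the sources used here. Cells with under 500 UMIs, under 300 genes or over 20% mitochondrial UMIs were left out, and doublets were removed with Scrublet (13.97% to 17.76% of cells). Free RNA was not removed. Clustering used Python 3.11.15, scanpy 1.11.5 and leidenalg 0.10.2 with 2000 variable genes, 30 principal components, 20 neighbours and resolution 0.8, without any potassium channel gene. Clusters were named from 21 marker lists, and 67 cycling cells entered no class. Counts were summed per class and library. CPM carries an exact Poisson interval, a ratio an exact conditional binomial interval and a share an exact Clopper-Pearson interval (scipy 1.17.1), all covering counting error only. For shares, cells were thinned to 1000 UMIs, which left out 6289 shallower cells. TMM factors came from edgeR 4.0.16 in R 4.3.3, with no test. The ratio, its interval and the call rule without the guard were tested on simulated counts of cardiomyocyte-like, fibroblast-like and pericyte-marked cells. The other steps were not. Gene positions came from GENCODE on mm10. All 10 members are named, and of the wider list genes called in a compared class or among the 3 with the highest mean CPM in a class. Similar genes were taken from the 3 with the highest correlation. Members and lists were chosen with earlier results of these data known. Alternatives changed the resolution, the filters, the minimum CPM, the scaling, the doublet step and the Myh6-R404Q barcodes. Some genes that these rules would name are not reported here.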

Additional observations from a re-analysis of the deposited data

Results flagged for a closer look

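Some members had ratios to WT on opposite sides of 1 in 2 classes of the same library, with intervals that did not reach 1 on either side. None of these differences between classes was tested, since each genotype had 1 library. Kcnq1 in Myh6-R404Q was at 1.51 times WT in endothelial-like cells, at 0.861 in cardiomyocyte-like cells and at 0.619 in cardiomyocyte-marked cells. Kcnd2 in Myh6-R404Q was at 1.22 in cardiomyocyte-like cells, at 0.635 in cardiomyocyte-marked cells and at 0.719 in mesothelial-like cells. Kcnd2 in Prkag2-p.R299Q was at 1.05 in cardiomyocyte-like and 0.376 in cardiomyocyte-marked cells. Kcnn2 in Prkag2-p.R299Q was at 1.10 in cardiomyocyte-like and 0.394 in cardiomyocyte-marked cells.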

How the results depend on the processing

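No paired analysis was possible because each genotype had 1 library. No ratio called in its leading class changed sign under the alternatives run, while some uncalled ratios of Kcnq1, Kcnh2, Kcnd2, Kcnj2 and Kcnj8 did. With every barcode of the Myh6-R404Q matrix used as deposited, which by construction mixes in cells of the other libraries, members called lower in Myh6-R404Q went from 1 to 0, and the Kcnj3 log2 ratio from -0.64 to -0.20. Between the mutants, members called higher in Prkag2-p.R299Q went from 0 to 1 with TMM factors and to 1 among cardiomyocyte-like cells without an atrial UMI, a setting added after seeing the data. Calls of the wider list, summed over classes with the guard taken over the compared classes alone, moved more. In Myh6-R404Q against WT, 10 higher became 6 as deposited and 3 at 50 CPM, and 16 lower became 4 and 6. In Prkag2-p.R299Q against WT, 15 higher became 7 after thinning and 7 at 50 CPM, and 11 lower became 4 at 50 CPM and 18 with no minimum. Between the mutants, 11 higher became 7 after thinning, 6 as deposited and 7 at 50 CPM, and 8 lower became 5, 4 and 4. Of the 30 CPM values of members in their leading class, 21 moved beyond their interval with no doublets removed, 16 with mitochondrial and muscle genes left out of the total, 10 after thinning, 6 with TMM factors and 6 with the matrix as deposited. Depth limits the genes of few UMIs, above all Kcnh2 and Kcnj2 outside cardiomyocyte-like cells.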
